A study of Saccharomyces pastorianus Weihenstephan 34/70 with 7 samples.

Results

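Budding yeast takes up iron through a reductive system, in which surface reductases turn ferric into ferrous iron and a ferroxidase coupled to a permease carries it in, and through carriers that import iron bound to siderophores, the iron chelators that many microbes secrete. When iron runs short, the activator Aft1 enters the nucleus and raises the genes of both systems, among them genes of cell wall mannoproteins that hold siderophore iron near the cell. The same activator acts on HMX1, which encodes haem oxygenase, the enzyme that breaks haem down and frees its iron. This account follows 10 genes of that system, namely HMX1, the ferroxidase FET3, the iron permease FTR1, the siderophore carriers ARN1, ARN2 and SIT1, the wall mannoproteins FIT2 and FIT3, the reductase FRE1 and the activator AFT1. They were chosen by gene symbol from the 5635 S. cerevisiae genes measured, each had 1 probe set, and all 10 listed genes were found.

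Expression was measured on Affymetrix Yeast Genome 2.0 arrays with RNA from stationary phase fermentations of Weihenstephan 34/70, a lager yeast whose genome joins that of S. cerevisiae with that of a cold-tolerant relative. All fermentations were in wort of 21 °Plato, raised to that gravity with glucose syrup or with maltose syrup, without enzyme or with Flavourzyme, a fungal peptidase mixture that releases amino acids from wort protein. Without enzyme there were 2 arrays of each wort, called glucose control and maltose control. With Flavourzyme there were 2 arrays of glucose wort and 1 of maltose wort, so 7 arrays in 4 groups. The probes were designed on S. cerevisiae, so how much of each signal came from transcripts of the other parental genome cannot be told apart.

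Samples of the 2 worts, and of fermentations with enzyme and those without, were taken at different times, so wort, enzyme and sampling time cannot be told apart. The labels do not say whether duplicates came from separate fermentations, so every p-value measures only the spread between these samples, which may be technical. The glucose controls differed most from each other, with a correlation over all genes of 0.928 against 0.997 between the maltose controls, and the median absolute difference between the glucose controls was 0.52 on the log2 scale against 0.08 between the maltose controls. For most sets of genes the counts of calls between the controls, and the values of FET3 and FTR1, are therefore also given without one or the other glucose control. Leaving out either takes the widest pair out of the spread, and calls between the controls rose from 28.6% of all genes to 66% without replicate 1 and 48.9% without replicate 2. Of 10 markers of stationary phase, 9 were above background on all 7 arrays and SNO1 on 6. Background here is a log2 signal of 4.95, the 95th percentile of the probe sets of the fission yeast S. pombe on the same arrays.

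The 10 genes were put together with earlier results of these arrays in view, so the fold changes that stand out among them are descriptions. No p-value is given for HMX1, and its calls, ranks and intervals below are descriptions too, not independent support. Comparisons were fitted with limma over all 5635 genes with Benjamini-Hochberg adjusted p-values, and calls were made at an adjusted p under 0.05. For the wort effect (mean of both maltose groups minus mean of both glucose groups), and likewise for the effect of Flavourzyme (both Flavourzyme groups minus both controls), an absolute log2 fold change over 1.301 was also asked for. For the wort effect, 1 of the 10 genes was called, HMX1, which was lower (log2 fold change -2.69, standard error 0.23), beside 8.8% of all genes called, 5.24% higher and 3.57% lower. That call was lost without either maltose control or either glucose Flavourzyme array, where the value was -2.78 to -2.59. The Flavourzyme effect called 0 of the 10, beside 0.0355% of all genes. At an unadjusted p under 0.05 there were 3 of the 10, beside 901 of all 5635 genes. The 2-way test without moderation called 0 of the 10. The plot of signals by array shows the values behind these counts.

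**Figure D1:**
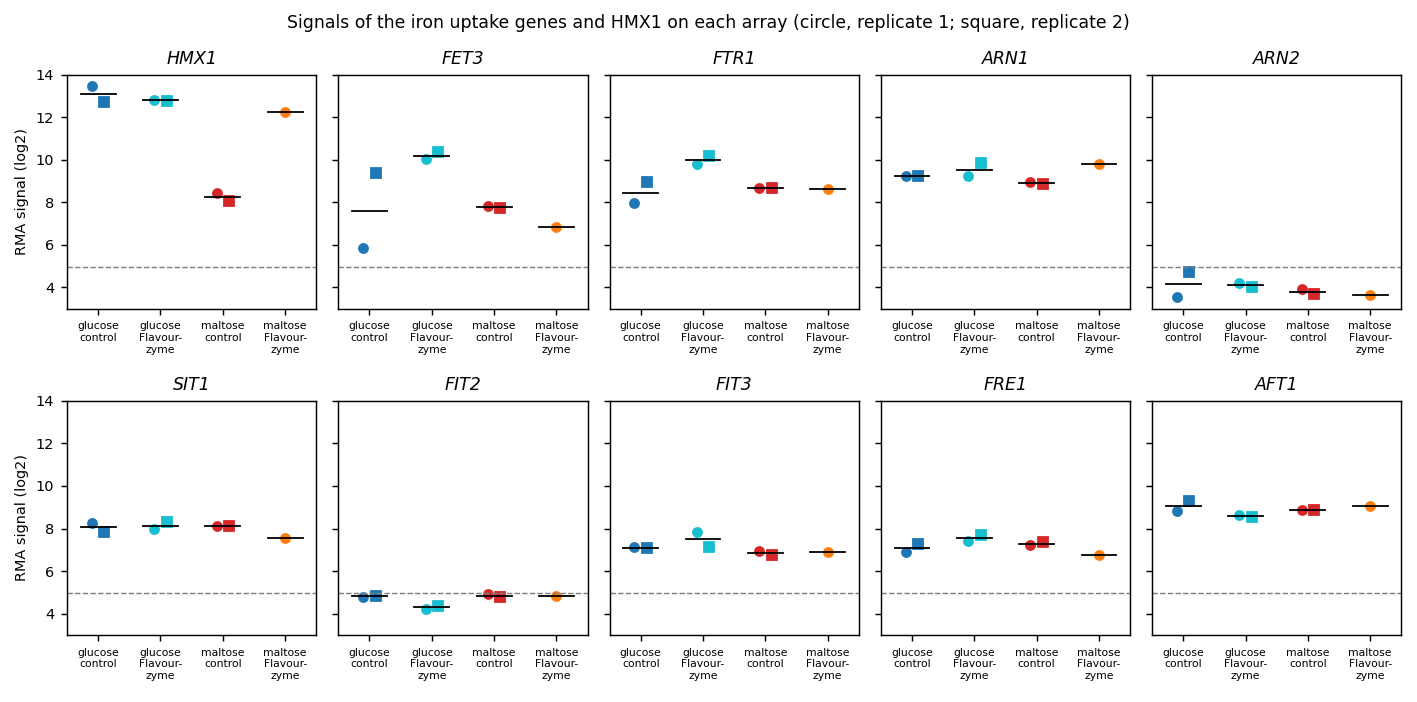
RMA signal (log2) of each of the 10 genes on each of the 7 arrays, by group (circle, replicate 1; square, replicate 2; black bar, group mean; dashed line, background of 4.95). HMX1 is low only in the maltose controls (8.44 and 8.05), FET3 spreads from 5.84 to 10.36, and ARN2 and FIT2 lie below the dashed line on every array.

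HMX1, the haem oxygenase gene, had the widest range of the 10 across the arrays. Its log2 signal was 13.44 and 12.73 in the glucose controls, 8.44 and 8.05 in the maltose controls, 12.79 and 12.77 in glucose wort with Flavourzyme and 12.25 in maltose wort with Flavourzyme. Both maltose controls thus lay far below the 5 other arrays, which ranged from 12.25 to 13.44. Both maltose controls were the lowest of all arrays for 2 of the 10 genes, HMX1 and ARN1, and for 16.6% of all genes.

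Without Flavourzyme, HMX1 was 28.6-fold lower in maltose wort than in glucose wort (95% interval 17.3 to 47.4), a log2 fold change of -4.84 with a standard error of 0.29. By that value it had rank 2 of the 5635 genes counted from the lowest. It was the 1 gene of the 10 called in that comparison, beside 28.6% of all genes, 18.7% higher and 9.81% lower, and the call was lost without maltose control replicate 1 (-5.03) or replicate 2 (-4.64). With Flavourzyme in both worts, the log2 fold change of HMX1 between maltose and glucose wort was -0.53 (standard error 0.36, 95% interval -1.42 to 0.36). There 0 of the 10 genes were called, beside 2.91% of all genes, 1.81% higher and 1.1% lower. At an unadjusted p under 0.05 there were 3 of the 10, beside 1735 of all 5635 genes. The 2-way test without moderation called 0 of the 10.

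Seen along the other axis of the design, HMX1 in maltose wort was 16.0-fold higher with Flavourzyme than without (95% interval 8.65 to 29.8), a log2 fold change of 4.0 with a standard error of 0.36. It was again the 1 gene of the 10 called, beside 1.99% of all genes (0.905% higher and 1.08% lower), and it had rank 4 of all genes counted from the highest. In glucose wort the log2 fold change with Flavourzyme was -0.30 (standard error 0.29, 95% interval -1.03 to 0.42). The interaction, by how much the enzyme effect in maltose wort exceeded the one in glucose wort, was 4.31 (standard error 0.47, 95% interval 3.16 to 5.46). The interaction called 0 of the 10 genes, HMX1 included, beside 0.0355% of all genes. At an unadjusted p under 0.05 there were 3 of the 10, beside 1076 of all 5635 genes. The 2-way test without moderation called 0 of the 10. The comparison within maltose wort rests on 1 array with Flavourzyme, whose spread is taken to be that of the other groups, and both large HMX1 values share the maltose controls. The call within maltose wort was lost in the 2-way test without moderation, with the replicate number as a block (log2 fold change 3.82), and without either maltose control or either glucose Flavourzyme array, where the value was 3.81 to 4.20.

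The stationary phase markers moved with HMX1 in part. Of the 10 markers, 4 were called between the controls, all lower in maltose wort (SPG1, SPG4, SPI1 and SSA3), beside 9.81% of all genes called lower, and 6 of the 10 had a negative fold change. Without glucose control replicate 1, 5 were called lower and 3 higher, and without replicate 2, 5 lower and 2 higher. SPG4, named for its need in stationary phase at high temperature, had a log2 fold change there of -2.0 (standard error of 0.21, adjusted p = 0.00819), and it was the 1 marker called with Flavourzyme in maltose wort (2.23, standard error 0.26, adjusted p = 0.0435). The 4 markers with a positive fold change between the controls included HSP12. Its log2 signal was 14.15 and 12.09 in the glucose controls and 14.32 and 14.25 in the maltose controls. The mean log2 signal of all 10 markers was 12.4 and 11.9 in the glucose controls, 11.9 and 11.9 in the maltose controls, 12.2 and 12.4 in glucose wort with Flavourzyme and 12.4 in maltose wort with Flavourzyme. Their part in the result for HMX1 was not tested.

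The 3 genes outside the iron and haem lists whose pattern was most like that of HMX1 over the 7 arrays were PDE1, a cyclic AMP phosphodiesterase (Pearson's r = 0.999), PUT1, the mitochondrial proline oxidase (r = 0.994), and RIM101, a transcription factor of the pH response (r = 0.994). These correlations are over 7 arrays of 4 groups in which the maltose controls are lowest, so they are given with no test. PUT1 had signals of 13.81 and 13.58 in the glucose controls, 7.67 and 7.95 in the maltose controls, 13.47 and 13.28 in glucose wort with Flavourzyme and 12.79 in maltose wort with Flavourzyme.

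None of the other 9 genes was called in any of the 7 comparisons fitted to all arrays, although ARN1 also had its lowest signals in the maltose controls. From 1 to 3 of the 9 were at an unadjusted p under 0.05 in 5 of these comparisons, beside 393 to 1735 of all 5635 genes. The 2-way test without moderation called 0 of the 9. Without Flavourzyme, their log2 fold changes between maltose and glucose wort lay between -0.33 and 0.22, with a median of 0.03 against 0.20 over all genes. Between the controls, 4 of all 10 genes were called without glucose control replicate 1 and 3 without replicate 2, beside the 66% and 48.9% of all genes given above. In maltose wort, those with Flavourzyme lay between -0.93 and 0.88, with a median of -0.04, the same as that of all genes. The plot of fold changes with their intervals sets HMX1 beside the 7 others that had a signal above background.

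**Figure D2:**
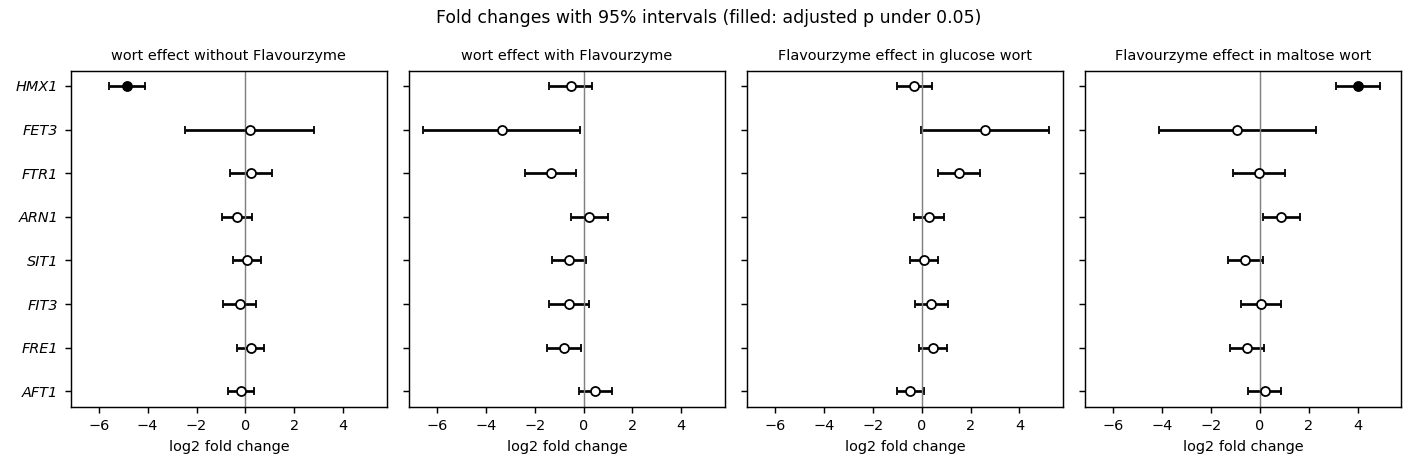
Log2 fold changes (points) with 95% intervals of the 8 genes above background in the 4 comparisons within a wort or within an enzyme group (filled points, adjusted p under 0.05 over all 5635 genes). HMX1 lies near -4.84 and 4.0 in 2 panels, and FET3 has the widest interval in each panel.

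FET3 encodes the multicopper oxidase that works with the permease Ftr1 in high-affinity iron uptake. Its log2 signal was 5.84 and 9.38 in the glucose controls, 7.83 and 7.71 in the maltose controls, 10.02 and 10.36 in glucose wort with Flavourzyme and 6.84 in maltose wort with Flavourzyme. The glucose controls spanned the maltose groups, with an SD of 2.50 (n = 2), and only 0.213% of all genes had a larger SD there. The arrays from glucose wort with Flavourzyme were the highest of the 7.

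The fold changes of FET3 were accordingly imprecise. With Flavourzyme in glucose wort, the log2 fold change was 2.58 (standard error 1.06, 95% interval -0.04 to 5.20, adjusted p = 0.701), which had rank 2 of all genes from the highest. In that comparison 0 of the 10 genes and 0% of all genes were called, with 2 of the 10 and 393 of all genes at an unadjusted p under 0.05 and 0 of all genes by the 2-way test without moderation. In maltose wort the log2 fold change with Flavourzyme was -0.93 (standard error 1.30, adjusted p = 0.742). Between maltose and glucose wort it was 0.17 without Flavourzyme (standard error 1.06, adjusted p = 0.922) and -3.35 with it (standard error 1.30, 95% interval -6.56 to -0.14, adjusted p = 0.152).

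Which glucose control was kept decided the direction between the worts. Without glucose control replicate 1, FET3 had a log2 fold change of -1.60 between the maltose and glucose controls, and without replicate 2 it was 1.94. The Flavourzyme effect in glucose wort was 0.81 without replicate 1 and 4.35 without replicate 2, each against a single glucose control. With Flavourzyme in both worts, the value of -3.35 did not involve the glucose controls, and no p-value is given for it without either of them. Leaving out either one raised the calls of that comparison from 164 to 3049 of all genes, since the spread then came only from the closer pairs of arrays.

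FTR1, the permease of the same complex, had a log2 signal of 7.97 and 8.94 in the glucose controls, 8.67 and 8.68 in the maltose controls, 9.80 and 10.16 in glucose wort with Flavourzyme and 8.63 in maltose wort with Flavourzyme. As for FET3, both arrays of glucose wort with Flavourzyme lay above the 5 others and the glucose controls spanned the maltose arrays. With Flavourzyme in glucose wort, the log2 fold change was 1.53 (standard error 0.35, 95% interval 0.66 to 2.39, adjusted p = 0.701), and in maltose wort it was -0.04 (standard error 0.43, 95% interval -1.10 to 1.01, adjusted p = 0.971). The interaction was -1.57 (standard error 0.55, adjusted p = 0.219). Without glucose control replicate 1 the value in glucose wort was 1.04, and without replicate 2 it was 2.01, each against a single glucose control.

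Over the 7 arrays, Pearson's r between FET3 and FTR1 was 0.93, and it was 0.86 between FET3 and FRE1 and 0.16 between FET3 and HMX1. These values describe 7 arrays of 4 groups. FET3 and FTR1 both had their lowest signal in glucose control replicate 1, where HMX1 had its highest (13.44). The 3 genes outside the lists most like FET3 were CYC3, a mitochondrial enzyme that attaches haem to cytochrome c (r = 0.979), AGX1, a mitochondrial aminotransferase that makes glycine (r = 0.975), and MCT1, a mitochondrial enzyme of fatty acid synthesis (r = 0.974). CYC3 had a log2 signal of 10.60 and 12.33 in the glucose controls, 11.63 and 11.70 in the maltose controls, 12.34 and 12.56 in glucose wort with Flavourzyme and 10.91 in maltose wort with Flavourzyme. The plot of signals relative to each gene's mean sets HMX1 beside CYC1, HAP4 and ROX1, chosen for this plot after their values were seen to follow those of HMX1 (r = 0.94 to 0.96), and FET3 beside FTR1, CCC2 and FET4.

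**Figure D3:**
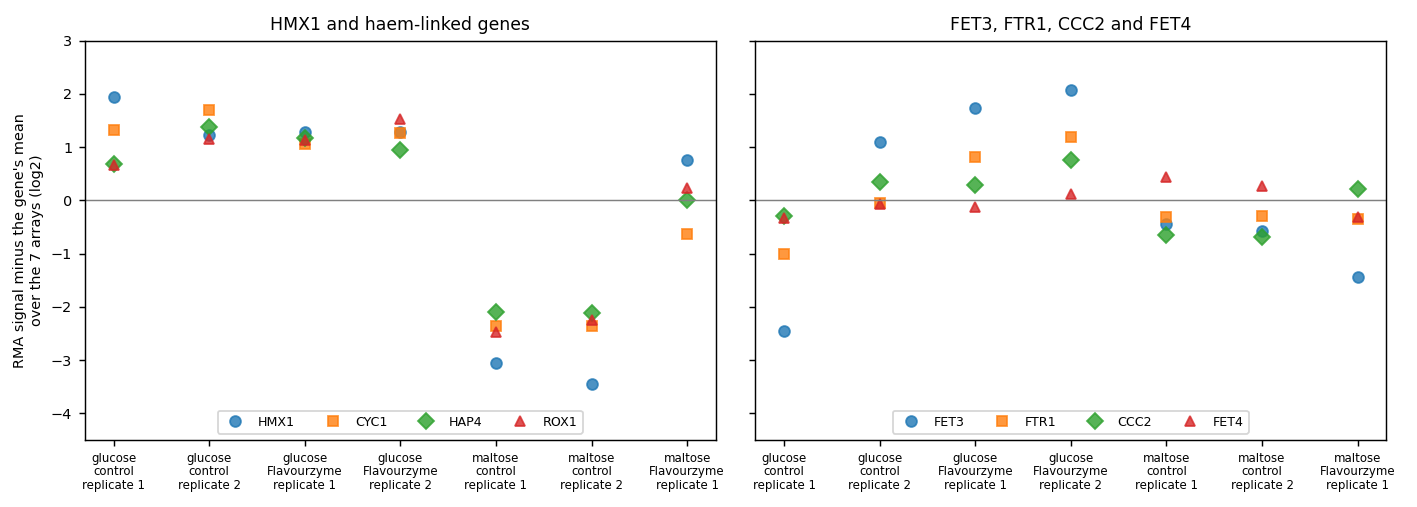
RMA signal minus the gene's mean over the 7 arrays (log2), for HMX1 with CYC1, HAP4 and ROX1 (left) and for FET3 with FTR1, CCC2 and FET4 (right), 1 point per array. On the left all 4 genes are lowest in both maltose controls, and on the right FET3 and FTR1 are lowest in glucose control replicate 1 and highest in glucose wort with Flavourzyme.

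FRE1, a surface reductase of iron and copper, had a narrow range. Its log2 signal was 6.88 and 7.28 in the glucose controls, 7.22 and 7.35 in the maltose controls, 7.40 and 7.68 in glucose wort with Flavourzyme and 6.75 in maltose wort with Flavourzyme. The arrays of glucose wort with Flavourzyme were again the highest and the single maltose Flavourzyme array the lowest. Between these groups the log2 fold change of maltose over glucose wort was -0.79 (standard error 0.28, 95% interval -1.48 to -0.10, adjusted p = 0.13). In total, 4 of the 10 genes (FET3, FTR1, FIT3 and FRE1) had both arrays of glucose wort with Flavourzyme above all others, against 4.63% of all genes.

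Among the siderophore carriers, ARN1 and SIT1 were above background on all arrays and ARN2 on none. ARN1, a carrier of ferrichromes, had a log2 signal of 9.23 and 9.21 in the glucose controls, 8.95 and 8.85 in the maltose controls, 9.24 and 9.83 in glucose wort with Flavourzyme and 9.78 in maltose wort with Flavourzyme. The maltose controls were the lowest, by less than the difference between both arrays of glucose wort with Flavourzyme. Its log2 fold change with Flavourzyme was 0.88 in maltose wort (standard error 0.30, 95% interval 0.13 to 1.63, adjusted p = 0.17) and 0.31 in glucose wort (standard error 0.25, adjusted p = 0.809).

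SIT1, the carrier of ferrioxamines, had a log2 signal of 8.26 and 7.86 in the glucose controls, 8.13 and 8.13 in the maltose controls, 7.96 and 8.31 in glucose wort with Flavourzyme and 7.54 in maltose wort with Flavourzyme. The 3 groups with duplicates overlapped, and the single array lay below them. Its log2 fold change with Flavourzyme in maltose wort was -0.59 (standard error 0.29, 95% interval -1.30 to 0.12, adjusted p = 0.299). ARN2, a carrier of fusarinine-type siderophores, had log2 signals from 3.57 to 4.70, below background on all 7 arrays, so no level is read from it.

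The wall mannoproteins bind siderophore iron at the cell surface. FIT3 had a log2 signal of 7.12 and 7.06 in the glucose controls, 6.95 and 6.78 in the maltose controls, 7.83 and 7.15 in glucose wort with Flavourzyme and 6.89 in maltose wort with Flavourzyme. Replicate 2 of glucose wort with Flavourzyme lay only just above the glucose controls, and no FIT3 comparison had an adjusted p under 0.05. Its log2 fold change with Flavourzyme was 0.39 in glucose wort (standard error 0.27, adjusted p = 0.781) and 0.03 in maltose wort (standard error 0.33, adjusted p = 0.972). FIT2 had log2 signals from 4.21 to 4.93, below background on all arrays.

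AFT1, the activator itself, had a log2 signal of 8.82 and 9.29 in the glucose controls, 8.86 and 8.87 in the maltose controls, 8.63 and 8.55 in glucose wort with Flavourzyme and 9.06 in maltose wort with Flavourzyme. Both arrays of glucose wort with Flavourzyme were the lowest of the 7, as they were for FIT2 among these genes and for 11.7% of all genes. The log2 fold change with Flavourzyme was -0.47 in glucose wort (standard error 0.22, 95% interval -1.02 to 0.08, adjusted p = 0.73) and 0.19 in maltose wort (standard error 0.27, adjusted p = 0.746). Aft1 is controlled mainly by where the protein lies in the cell, which RNA signals do not measure.

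FRE2, another ferric reductase, had log2 signals of 8.13 and 7.65 in the glucose controls, 8.33 and 8.33 in the maltose controls, 7.58 and 7.87 in glucose wort with Flavourzyme and 8.62 in maltose wort with Flavourzyme. Its wort effect was 0.67 (standard error 0.19, adjusted p = 0.0424), below the fold threshold. By adjusted p alone, 34.3% of all genes passed for the wort effect. ENB1, a carrier of enterobactin, had a wort effect of 0.89 (standard error 0.18, adjusted p = 0.0193), and AFT2, the paralog of AFT1, one of -1.23 (standard error 0.30, adjusted p = 0.0299), both also below the fold threshold. FIT1, another wall mannoprotein, had a wort effect of 0.73 (standard error 0.26, adjusted p = 0.0722).

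FTH1 and FET5, which form the vacuolar counterpart of the Ftr1 and Fet3 complex, had wort effects of -0.53 (adjusted p = 0.253) and 0.13 (adjusted p = 0.744). FET4, the low-affinity iron transporter, had log2 signals of 13.18 and 13.44 in the glucose controls, 13.95 and 13.77 in the maltose controls, 13.39 and 13.62 in glucose wort with Flavourzyme and 13.19 in maltose wort with Flavourzyme. The maltose controls lay above the others, by 0.55 over the glucose controls (standard error 0.21, adjusted p = 0.0988). CCC2, the pump that loads copper onto Fet3, had a log2 fold change with Flavourzyme of 0.49 in glucose wort (adjusted p = 0.772) and 0.88 in maltose wort (adjusted p = 0.232). CTR1, the copper importer, differed between duplicates, with 9.01 and 11.33 in the glucose controls and 9.08 and 10.96 in glucose wort with Flavourzyme. TIS11, also called CTH2, which destabilises messages of iron-using proteins, did likewise, with 7.43 and 5.58 in the glucose controls and 5.37 and 6.54 in glucose wort with Flavourzyme.

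Beyond uptake, 78 other genes of iron, copper and haem metabolism were grouped by role. The lists were chosen with earlier results of these arrays in view, so their calls and adjusted p-values are descriptions, not independent support for HMX1. Between the maltose and glucose controls, 28 of the 78 were called, 14 higher and 14 lower, beside the 28.6% of all genes given above, and their median log2 fold change was -0.04 against 0.20 over all genes. With Flavourzyme in maltose wort, which rests on 1 array, the 2-way test without moderation called 0 of the 78 and 9 of all 5635 genes. The moderated test called 7 of the 78 there, 3 higher and 4 lower, beside 1.99% of all genes. Without either glucose control that count was 38 of 78, 18 higher and 20 lower, beside 38.4% of all genes. Without glucose control replicate 1 the calls between the controls were 62 of 78 (66% of all genes), and without replicate 2 they were 50 of 78 (48.9% of all genes). The plot of fold changes by role shows each gene.

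**Figure D4:**
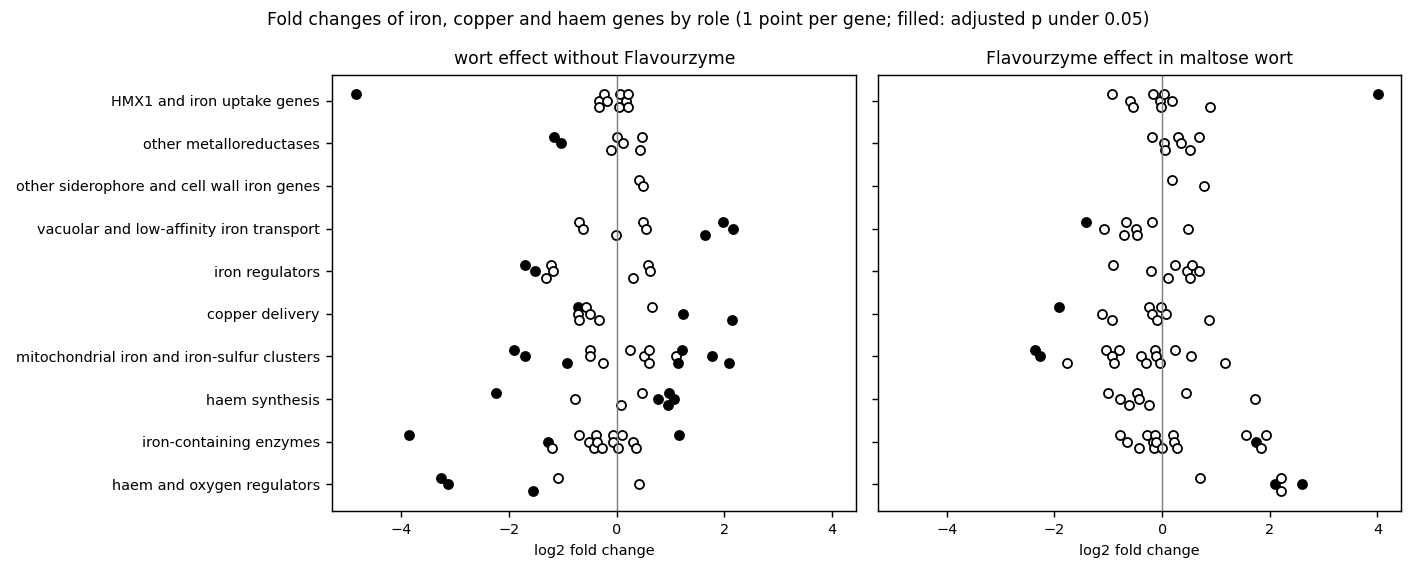
Log2 fold change of each gene of the 10 roles, between the maltose and glucose controls (left) and with Flavourzyme in maltose wort (right), 1 point per gene, filled where the adjusted p over all 5635 genes was under 0.05. HMX1 is the leftmost point on the left (-4.84) and the rightmost on the right (4.0), and the haem and oxygen regulators hold ROX1 and HAP4 near -3.27 and -3.14 on the left.

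Of 5 regulators that answer to haem and oxygen, 3 were called lower in the maltose controls and 0 higher, beside 9.81% and 18.7% of all genes, and 4 of the 5 fold changes were negative. Without glucose control replicate 1 the calls were 3 lower and 1 higher, and without replicate 2 they were 4 lower. ROX1, the repressor of hypoxic genes, had log2 signals of 10.71 and 11.21 in the glucose controls, 7.58 and 7.81 in the maltose controls, 11.18 and 11.57 in glucose wort with Flavourzyme and 10.29 in maltose wort with Flavourzyme. The maltose controls were below all others, with a log2 fold change of -3.27 against the glucose controls (standard error 0.26, adjusted p = 0.00588) and of 2.59 with Flavourzyme in maltose wort (standard error 0.32, adjusted p = 0.0435). HAP4, the activating subunit of the factor that raises respiratory genes, had values of -3.14 (standard error 0.27, adjusted p = 0.00605) and 2.11 (standard error 0.34, adjusted p = 0.0483) in the same comparisons, and MOT3, another repressor, was lower in the maltose controls (-1.56, standard error 0.30, adjusted p = 0.0178). HAP1, the haem-sensing activator, had a log2 fold change of 0.41 between the controls (adjusted p = 0.514). With Flavourzyme in maltose wort all 5 fold changes were positive and 2 were called, beside 0.905% of all genes called higher. MOT3 had a log2 signal of 9.89 on that 1 Flavourzyme array, against 7.68 and 7.69 in the maltose controls. UPC2, the remaining regulator, had 10.03 against 7.78 and 7.84, with 10.31 and 7.49 in the glucose controls.

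Of 16 enzymes and carriers that hold iron, 3 were called between the controls, 2 lower and 1 higher in maltose wort, beside 28.6% of all genes, while 11 fold changes were negative and 5 positive. Without either glucose control 12 of 16 were called, 7 lower and 5 higher without replicate 1, and 10 lower and 2 higher without replicate 2. CYC1, the main cytochrome c and a haem protein, had log2 signals of 13.64 and 14.02 in the glucose controls, 9.96 and 9.97 in the maltose controls, 13.39 and 13.59 in glucose wort with Flavourzyme and 11.70 in maltose wort with Flavourzyme. It was lower in the maltose controls (log2 fold change -3.87, standard error 0.22, adjusted p = 0.00365) and higher with Flavourzyme in maltose wort by 1.74 (standard error 0.26, adjusted p = 0.0461). CYC1 was still lower in maltose than in glucose wort with Flavourzyme (-1.78, standard error 0.26, adjusted p = 0.0455). RIP1, the Rieske iron-sulfur protein, was also lower in the maltose controls (-1.28, standard error 0.19, adjusted p = 0.0124), while SDH3, a subunit of succinate dehydrogenase that helps to bind haem, was higher (1.15, standard error 0.19, adjusted p = 0.0138). As both comparisons share the maltose controls, the opposite signs of ROX1, HAP4 and CYC1 in them are not independent. The same holds for SPG4 above and for GRX5, YAH1, SMF1 and ATX1 below. The 2-way test without moderation kept none of these calls with Flavourzyme in maltose wort.

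Haem synthesis, which makes the substrate of Hmx1, went in both directions. Of its 8 genes, 4 were called higher in the maltose controls, with log2 fold changes of 0.77 to 1.07, and 1 was called lower, beside 18.7% and 9.81% of all genes, while 6 fold changes were positive and 2 negative. These calls became 5 higher and 2 lower without glucose control replicate 1, and without replicate 2 they were 4 higher and 2 lower. HEM13, the coproporphyrinogen oxidase, changed by 0.96 (standard error 0.18, adjusted p = 0.0172), HEM14 also one of 0.96 (adjusted p = 0.0189) and HEM12 one of 1.07 (adjusted p = 0.0412). HEM3, which makes the linear tetrapyrrole, was lower by -2.25 (standard error 0.45, adjusted p = 0.0202). None of the 8 was called with Flavourzyme in maltose wort. At an unadjusted p under 0.05 there were 3 of them, beside 1246 of all 5635 genes, and 0 of the 8 were called there by the 2-way test without moderation.

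Of 15 genes of mitochondrial iron and iron-sulfur cluster assembly, 4 were called higher in the maltose controls and 3 lower, beside 18.7% and 9.81% of all genes, while 9 fold changes were positive and 6 negative. With glucose control replicate 1 left out the calls were 8 higher and 5 lower, and without replicate 2 they were 6 higher and 4 lower. GRX5, a glutaredoxin of cluster transfer, rose in the maltose controls (1.77, standard error 0.20, adjusted p = 0.00832) and was lower with Flavourzyme in maltose wort (-2.35, standard error 0.24, adjusted p = 0.0435). YAH1, the ferredoxin of the same pathway, had values of 2.09 (standard error 0.26, adjusted p = 0.0101) and -2.27 (standard error 0.32, adjusted p = 0.0441). ARH1, its reductase, was higher in the maltose controls (1.14, adjusted p = 0.0147), and ISU1, the scaffold on which clusters are built, was lower (-1.91, adjusted p = 0.0107).

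Of 8 genes of vacuolar and low-affinity transport, 3 were called higher in the maltose controls and 0 lower, beside 18.7% and 9.81% of all genes, while 5 fold changes were positive and 3 negative. The calls were 3 higher and 2 lower without glucose control replicate 1, and without replicate 2 they were 6 higher and 1 lower. SMF1, a manganese and iron carrier, had log2 signals of 8.81 and 8.87 in the glucose controls, 11.02 and 11.00 in the maltose controls, 9.26 and 9.09 in glucose wort with Flavourzyme and 9.60 in maltose wort with Flavourzyme. It was higher in the maltose controls by 2.17 (standard error 0.18, adjusted p = 0.00605) and lower with Flavourzyme in maltose wort (-1.41, standard error 0.22, adjusted p = 0.0477). SMF3, the vacuolar iron exporter, had a value of 1.97 between the controls (standard error 0.29, adjusted p = 0.0123) and COT1, a vacuolar zinc carrier, one of 1.65 (standard error 0.21, adjusted p = 0.00987). Of 9 genes of copper delivery, 2 were called higher in the maltose controls and 1 lower, beside 18.7% and 9.81% of all genes. Of their fold changes, 3 were positive and 6 negative, with a median of -0.49 against 0.20 over all genes. ATX1, the copper chaperone that serves Ccc2, was higher in the maltose controls (2.14, standard error 0.24, adjusted p = 0.00832) and lower with Flavourzyme in maltose wort (-1.91, standard error 0.29, adjusted p = 0.0477). COX17, which carries copper for cytochrome oxidase, was also higher in the maltose controls (1.24, adjusted p = 0.0125), and MAC1, the copper-sensing activator, was lower (-0.72, adjusted p = 0.0476).

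Of 8 regulators of iron use, 2 were called lower in the maltose controls and 0 higher, beside 9.81% and 18.7% of all genes, while 5 fold changes were negative and 3 positive. All 8 were called without glucose control replicate 1, 5 lower and 3 higher, and without replicate 2, 5 were called lower. FRA1, which holds Aft1 inactive when iron is ample, had log2 signals of 11.90 and 11.96 in the glucose controls, 10.16 and 10.30 in the maltose controls, 11.87 and 11.97 in glucose wort with Flavourzyme and 10.47 in maltose wort with Flavourzyme. The log2 fold change between maltose and glucose wort was -1.70 without Flavourzyme (standard error 0.18, adjusted p = 0.00821) and -1.45 with it (standard error 0.22, adjusted p = 0.0458). YAP5, the activator of high-iron genes, was lower in the maltose controls (-1.51, standard error 0.32, adjusted p = 0.0227). GRX3, a glutaredoxin that works with Fra1, was called in the wort effect (-1.36, standard error 0.29, adjusted p = 0.0211). Of 7 other metalloreductases, 2 were called lower in the maltose controls and 0 higher, beside 9.81% and 18.7% of all genes, while 4 fold changes were positive and 3 negative. FRE6 and FRE8 were lower in the maltose controls (-1.04 and -1.16, adjusted p = 0.0284 and 0.0485), and FRE3, FRE5 and FRE7 were below background on all arrays.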

How the data were processed

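RNA of 7 samples in 4 groups was hybridized once each to Affymetrix Yeast Genome 2.0 arrays. The deposited values are log2 signals that the authors made by RMA with the affy package after scanning with MAS5 (versions not given in the sources used here), and they were used as they stand. Of 10928 probe sets, 5685 name S. cerevisiae genes. Where a gene had several (48 genes), its probe set of highest mean signal stood for it, so 5635 genes entered the tests, without a filter on low signal. The means of the 4 groups were fitted in R 4.3.3 with limma 3.58.1 (3 residual degrees of freedom, 2.78 prior degrees of freedom, prior SD 0.251), with p-values adjusted by Benjamini-Hochberg and 95% intervals from the moderated test. The fold threshold of 1.301 is that of the methods and equals -log10 of 0.05. The genes and lists were chosen with earlier results of these data known. Named were all 10 genes, fixed partners and paralogs, up to 4 called genes with the smallest p per list and comparison, the 4 called stationary phase markers, and the 3 genes most correlated with HMX1 and with FET3. HAP1, UPC2, HSP12, FRE3, FRE5 and FRE7 were named after their values were seen. Alternatives were a replicate block, quantile normalization over S. cerevisiae, a filter on dim probe sets, no moderation, mean probe sets, median centring, adjusted p alone and leaving out each array. Precision is limited by the number of arrays.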

Additional observations from a re-analysis of the deposited data

How the results depend on the processing

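Counts of called genes among the 10 were recomputed under the alternatives, as were log2 fold changes for part of the genes and comparisons. The tallies that follow therefore do not cover every fold change of the 10. Of 252 single values with all arrays, 245 kept their direction and side of the threshold, 2 lost the call, 1 gained it and 4 changed sign. With 1 array left out, 209 of 263 were unchanged, 10 lost the call, 33 gained it and 11 changed sign. The cause was not tested, except that leaving out a glucose control takes the widest pair out of the spread.

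With the replicate number as a block, 0 of the 10 genes were called with Flavourzyme in maltose wort (1 without the block), FIT3 was -0.12 there and FTR1 0.18, and no other call changed. The numbers mark no shared batch in the labels, and differences between replicates correlated at 0.0074, 0.18 and 0.10 across the pairs of groups. The 2-way test without moderation also called 0 genes there. Quantile normalization over S. cerevisiae probe sets called 1 gene in the interaction (HMX1) and turned FET3 between the controls to -0.16 and FTR1 with Flavourzyme in maltose wort to 0.013.

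With 1 array left out, the called genes of the 10 ranged from 0 to 2 for the wort effect, 0 to 2 for the Flavourzyme effect, 0 to 4 for the interaction, 0 to 3 for Flavourzyme in glucose wort, 0 to 3 for Flavourzyme in maltose wort, 0 to 4 for wort without Flavourzyme and 0 to 6 for wort with it. The highest counts came without a glucose control, and HMX1 lost its wort effect call without either maltose control or either glucose Flavourzyme array, and its call between the controls without either maltose control. For FET3 the wort effect ranged from -2.47 (without glucose control replicate 1) to 0.17 (without the maltose Flavourzyme array, where the main effects are those of 1 pair of groups), the Flavourzyme effect from -0.059 to 2.58 without the same arrays, and the value between the controls from -1.60 to 1.94 without glucose control replicate 1 or 2. For FTR1 the wort effect ranged from -0.81 to 0.22 and the value between the controls from -0.26 to 0.70, again without those arrays. For HMX1 the Flavourzyme effect ranged from -0.30 without the maltose Flavourzyme array to 2.03, and the value in glucose wort from -0.66 to 0.051 without glucose control replicate 2 or 1. Values near 0 also changed sign for SIT1 with Flavourzyme in glucose wort (-0.12 to 0.28), FIT3 with Flavourzyme in maltose wort (-0.055 to 0.12) and ARN1 between the worts with Flavourzyme (-0.056 to 0.54).

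Over all genes, calls with Flavourzyme in maltose wort were 112, against 423 with quantile normalization, 9 without moderation and 2 with the block, and interaction calls were 2 against 167 with quantile normalization. For the wort effect they were 496 against 138 without moderation and 1931 by adjusted p alone.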
